A study of Mus musculus with 7 samples.

Results

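The genes described here are the Src-family kinase genes Blk, Lyn, Fyn, Lck, Fgr and Yes1, together with Csk, the gene of the kinase that holds the family in its inactive form. They were taken by symbol from a table of 24341 genes, all 7 were found, and the fall of Blk in leukemia, known from earlier results of these data, was to be set against its paralogs. The RNA came from B-cell precursor (BCP) cells of the spleens of BALB/c mice hemizygous for Eμ-Ret, an oncogenic Ret fusion transgene driven by the immunoglobulin heavy chain enhancer. Preleukemic samples (n = 4) were from young healthy mice and leukemic samples (n = 3) from older moribund mice with overt disease, so that age and disease state cannot be told apart. Mice of both groups carried the transgene, and no sample came from a transgene-negative mouse. The labels describe the cells of both groups as sorted. The study's methods give the gate (B220int, CD43int and BP-1hi, a phenotype of pro-B cells) for preleukemic cells, and for leukemic cells taken into culture they state that enrichment was mostly left out, so that the 2 groups may have differed in how they were purified. The question was which genes differ between the preleukemic and the leukemic stage.

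Src-family kinases are anchored to the inner face of the plasma membrane and are usually the first enzymes to act when an antigen receptor, the pre-B cell receptor (pre-BCR) included, is engaged, since they phosphorylate the tyrosines of the Cd79a and Cd79b tails to which Syk then binds. Blk, Lyn and Fyn are the members best known from B-lineage cells, Lck is best known as the kinase of the T-cell receptor and its co-receptors, Fgr is known from neutrophils, monocytes and macrophages, and Yes1 and Src are expressed in many tissues. Csk phosphorylates a tyrosine near the carboxyl end of each kinase, which then folds back onto the kinase's own SH2 domain and closes the enzyme, whereas phosphatases such as CD45 (Ptprc) remove the phosphate.

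The tyrosine on which Csk acts is the feature that ties the 6 kinases to the seventh gene, so the coding ends of 4 kinases and of Csk are shown. Each line gives the last 30 coding bases before the stop codon, 5′ to 3′ on the coding strand, from the principal transcript of GENCODE M21 (GRCm38), and capitals mark the codon of the last tyrosine where it lies in these bases. The bases lie in the last exon of each gene, at chr10:39563940-39563969 (plus strand) for Fyn, chr4:129548801-129548830 (minus strand) for Lck, chr4:133000311-133000340 (plus strand) for Fgr, chr5:32684727-32684756 (plus strand) for Yes1 and chr9:57627324-57627353 (minus strand) for Csk.
Fyn: gagccccagTATcagcccggtgaaaacctg
Lck: gccacagagggccagTACcagccccagcct
Fgr: gaaccacagTACcagcctggagaccagaca
Yes1: gagccacagTACcaaccaggagaaaattta
Csk: gagcacatcaagacccatgagctgcacctg
The last tyrosine codon stood 6 codons before the end in Fyn, Fgr and Yes1 and 4 codons before the end in Lck, as also in Blk and Lyn. Csk itself had no tyrosine codon in its last 30 coding bases, and its last one was followed by 34 codons. The coding sequences of the 6 kinases, which run from 491 codons (Lyn) to 541 codons (Yes1), were identical at between 62.4% and 73.2% of aligned bases over the 15 pairs. The longest run of bases that any pair shared over the whole transcript was 23 (for Blk with any of the other kinases, 22), which bears on how far reads of one could be counted for another. Those of Csk (450 codons) matched each kinase at 63.0% to 66.7% of aligned bases.

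The values are FPKM, the number of sequenced fragments scaled to the length of the transcript and to the depth of the library, so that levels can be set side by side between genes. Depth, read from the steps in which low FPKM values rise, was between 13.55 M and 16.15 M fragments per sample. The 2 groups were compared by limma on the log2(FPKM + 1) scale for 10541 genes, those with a total of 10 FPKM or more across the 7 samples, with Benjamini-Hochberg adjustment and a threshold of 0.05. All fold changes below are leukemic over preleukemic on that scale, on which the added 1 makes the change of weakly expressed genes look smaller than it is. Of the genes tested, 14.7% passed the threshold (8.47% higher and 6.26% lower in leukemia), and in 32.0% the 2 groups did not overlap. After quantile normalization between samples the split turned from 893 higher and 660 lower to 755 higher and 936 lower. Summed over 13 B-cell precursor markers the FPKM ran from 3501 to 5309 in leukemic and from 6504 to 8109 in preleukemic samples, and 12 of the 13 had a log2 fold change below 0, of which 4 were called lower in leukemia, with a median of -0.70. Enpep, the gene of BP-1, stood at 19.1, 102 and 77.2 FPKM in leukemic replicates 1 to 3 and between 134 and 210 in the preleukemic samples (log2 fold change -1.70, limma adjusted p = 0.069). Of markers of other cell types, 7 of 7 red cell precursor genes tested, 4 of 4 platelet genes, 6 of 9 macrophage genes and 3 of 7 neutrophil genes were called higher in leukemia, and all of these genes, called or not, had a log2 fold change above 0. Of 9 T and NK cell genes tested, 7 had a log2 fold change above 0 and 0 were called. None of these lists held a gene at the lowest value of the table in every sample. In these bulk samples, fewer cells that express a gene and less of its RNA per cell cannot be told apart.

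**Figure D1:**
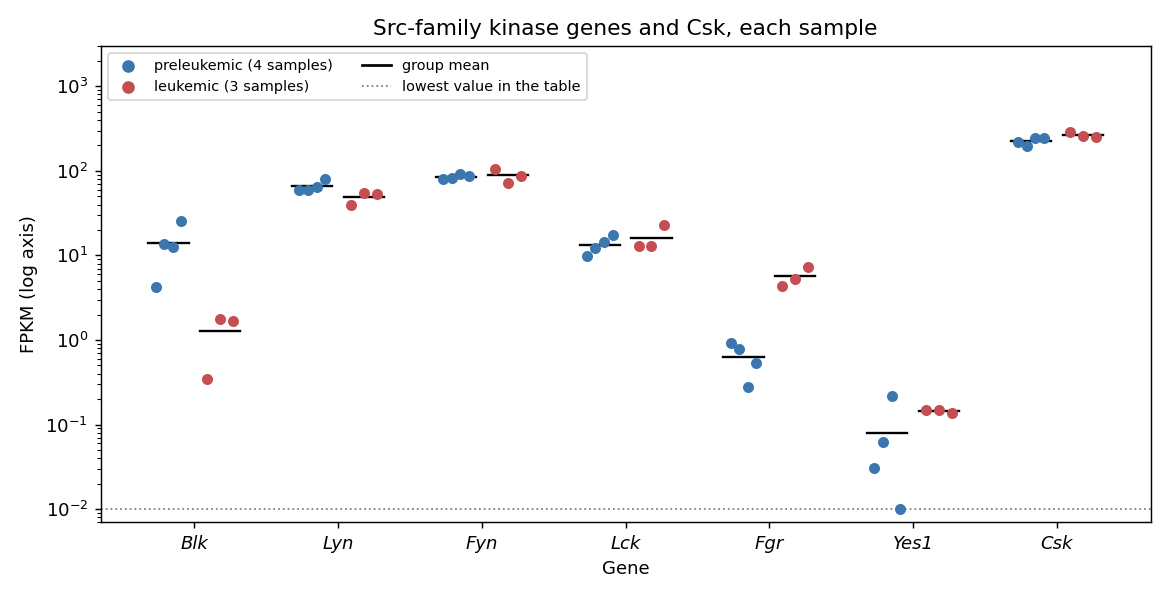
FPKM of each gene on a log axis, with 1 point per sample (blue, 4 preleukemic; red, 3 leukemic), black bars at the group means and a dotted line at the lowest value in the table. The leukemic points of Blk (at most 1.79) lie below all preleukemic points, those of Fgr (at least 4.41) lie above, and those of Fyn and Lck lie within or across the preleukemic range.

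Of the 7 genes, 6 passed the filter on low values and 2 of these passed the test, Blk in the downward and Fgr in the upward direction. Each of the 2 passed the filter through the group in which it was high, since Blk summed to 3.79 FPKM over the leukemic and Fgr to 2.53 FPKM over the preleukemic samples, so their count was not read against the share of all genes. Both were also called when the 16676 genes above the lowest value in any sample were tested without a filter, of which 10.3% were called (6.68% higher, 3.58% lower).

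Blk, the B-lymphoid kinase gene, lies at chr14:63372837-63417187 on the minus strand of GRCm38. It was measured at 0.344, 1.79 and 1.66 FPKM in leukemic replicates 1 to 3 and at 4.26, 13.6, 12.5 and 25.2 FPKM in preleukemic replicates 1 to 4. The highest leukemic sample was below the lowest preleukemic sample, and preleukemic replicates 1 and 4 were far apart within their own group. The means were 1.26 ± 0.798 (SD, n = 3) and 13.9 ± 8.62 (SD, n = 4) FPKM, which is 11.0-fold lower in leukemia. The log2 fold change was -2.58 with an SE of 0.53 (limma adjusted p = 0.0236, and 0.0395 without the filter), and only 11 of the genes tested had a lower one. The exact permutation test of the same difference, over all 35 possible labelings of the samples, gave p = 0.0571, where the smallest p these samples allow is 0.0286.

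At the depths above, the Blk values stood for about 11.2, 58.6 and 56.9 fragments in leukemic replicates 1 to 3 and for 133 to 727 fragments in the preleukemic samples. Leukemic replicate 1, with the fewest Blk fragments, was also the sample with the lowest sum of B-cell precursor markers (3501 FPKM), and preleukemic replicate 4, with the most, had the highest (8109 FPKM). The part of this in the fall of Blk was not tested. The call of Blk was lost when preleukemic replicate 2, 3 or 4 was left out (limma adjusted p = 0.0678, 0.0713 and 0.0657), with log2 fold changes between -2.55 and -2.23. Calls over all genes tested also fell in these fits, to 443, 271 and 149 from 1553 with all samples. Without leukemic replicate 2 and preleukemic replicate 1, the samples with the most red cell signal in their groups (22769 and 2148 FPKM), the log2 fold change was -3.19 (limma adjusted p = 0.0146). These 2 samples also held the highest leukemic (1.79 FPKM) and the lowest preleukemic (4.26 FPKM) value of Blk. Leaving them out therefore widens the difference whatever the red cell signal, and this fit cannot show the part of red cells.

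Lyn, at chr4:3678121-3791612 on the plus strand, encodes the kinase that in B cells both starts receptor signals and feeds inhibitory receptors such as CD22. Its level was 39.1, 55.3 and 52.8 FPKM in leukemic replicates 1 to 3 and 58.7, 58.8, 64.9 and 79.8 FPKM in preleukemic replicates 1 to 4. The groups did not overlap, but leukemic replicates 2 and 3 lay close below preleukemic replicates 1 and 2. The means were 49.0 ± 8.72 (SD, n = 3) and 65.5 ± 9.95 (SD, n = 4) FPKM. The log2 fold change of -0.42 (SE 0.16) did not pass after adjustment over all genes (limma adjusted p = 0.113), while the exact permutation test of Lyn alone gave p = 0.0286.

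Fyn, the kinase gene at chr10:39369799-39565374 on the plus strand, was the highest of the family in both groups. It was measured at 105, 72.5 and 87.9 FPKM in the leukemic and at 79.9, 82.4, 90.9 and 86.3 FPKM in the preleukemic samples. The leukemic samples held both the highest and the lowest value of the 7, and the preleukemic samples lay between them. The means were 88.6 ± 16.5 (SD, n = 3) and 84.9 ± 4.81 (SD, n = 4) FPKM, with a log2 fold change of 0.05 (SE 0.13, limma adjusted p = 0.818), which took the opposite sign after quantile normalization (-0.05) and without leukemic replicate 1 (-0.09).

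Lck, at chr4:129548344-129573641 on the minus strand, was present in every sample although it is best known from T cells. Its level was 13.0, 12.9 and 22.6 FPKM in the leukemic and 9.79, 12.4, 14.4 and 17.3 FPKM in the preleukemic samples. Leukemic replicate 3 alone was above the preleukemic range and the other two were inside it. The means were 16.2 ± 5.58 (SD, n = 3) and 13.5 ± 3.18 (SD, n = 4) FPKM, and the log2 fold change of 0.23 (SE 0.24, limma adjusted p = 0.530) was -0.03 without leukemic replicate 3. Cd3e, a defining gene of T cells, was between 0.646 and 3.07 FPKM over the 7 samples. Summed over 11 T and NK cell genes the FPKM was 15.4, 94.1 and 83.6 in leukemic replicates 1 to 3, and 22.8, 31.4, 21.9 and 27.9 in preleukemic replicates 1 to 4, and 59.9 FPKM of the sum in leukemic replicate 3, where Lck was highest, came from Cd2. The part of T and NK cells in the level of Lck was not tested.

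Fgr, a kinase gene of myeloid cells, lies at chr4:132974095-133001882 on the plus strand. It was measured at 4.41, 5.32 and 7.23 FPKM in leukemic replicates 1 to 3 and at 0.928, 0.785, 0.276 and 0.537 FPKM in preleukemic replicates 1 to 4. Every leukemic sample was above 4 FPKM and every preleukemic sample below 1 FPKM. The means were 5.65 ± 1.44 (SD, n = 3) and 0.632 ± 0.287 (SD, n = 4) FPKM, 8.95-fold higher in leukemia. The log2 fold change was 2.02 with an SE of 0.23 (limma adjusted p = 0.00765, exact permutation p = 0.0286, the smallest these samples allow). The call was kept when each of the 7 samples was left out in turn, with log2 fold changes between 1.86 and 2.16.

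The leukemic Fgr values stood for 213 to 369 fragments and the preleukemic ones for 12 to 43.2. The summed FPKM of 8 neutrophil genes was 1513, 1394 and 1723 in leukemic replicates 1 to 3 and 847, 560, 146 and 227 in preleukemic replicates 1 to 4. The preleukemic samples stood in the same order for this sum as for Fgr. The leukemic samples did not, since the sum was lowest in replicate 2 and Fgr in replicate 1. The 9 macrophage genes summed to 43.4, 230 and 96.5 FPKM in leukemic replicates 1 to 3 and to 10.6 to 19.1 FPKM in preleukemic samples. The part of these cells in the rise of Fgr was not tested.

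The 250 bases before the RefSeq start of Fgr are shown because it is the member that rose and its window was given. They run 5′ to 3′ at chr4:132973845-132974094 on the plus strand of GRCm38.p6, and capitals mark GGAAGT, the core to which PU.1, an ETS factor of myeloid and B-lineage cells, can bind.
Fgr: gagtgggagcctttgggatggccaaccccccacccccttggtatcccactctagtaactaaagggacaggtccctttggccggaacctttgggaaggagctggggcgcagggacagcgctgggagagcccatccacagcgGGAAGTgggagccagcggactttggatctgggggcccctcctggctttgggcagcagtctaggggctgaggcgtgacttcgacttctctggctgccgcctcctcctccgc
The motif GGAAGT, searched on both strands, was found in 19.7% of 32851 windows of the same length. RefSeq windows matched 5 of the 7 genes, and the motif stood in 2 of 2 windows of Lck and 1 of 1 of Fgr, and in 0 of 1 for Fyn, 0 of 1 for Yes1 and 0 of 2 for Csk. A match describes these letters and is not evidence of binding.

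Yes1, at chr5:32611171-32687066 on the plus strand, was close to the limit of what could be measured. Its level was 0.149, 0.148 and 0.138 FPKM in the leukemic samples and 0.0304, 0.0622, 0.219 and 0.01 FPKM in the preleukemic samples, the last being the lowest value the table holds. The preleukemic samples lay on both sides of the leukemic ones. The values stood for about 10 fragments in each leukemic sample and for 1.96 to 13.3 fragments in preleukemic replicates 1 to 3, and with a sum of 0.757 FPKM the gene was not tested in the filtered fit. Without the filter its limma adjusted p was 0.414, and a difference was not detectable at this depth.

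Csk, at chr9:57626646-57653631 on the minus strand, was the highest of the 7 genes. Its level was 285, 255 and 253 FPKM in leukemic replicates 1 to 3 and 217, 195, 247 and 245 FPKM in preleukemic replicates 1 to 4. The lowest leukemic sample was just above the highest preleukemic sample. The means were 264 ± 17.8 (SD, n = 3) and 226 ± 25.0 (SD, n = 4) FPKM, and the log2 fold change of 0.23 (SE 0.10) did not pass the threshold (limma adjusted p = 0.169, exact permutation p = 0.0857).

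**Figure D2:**
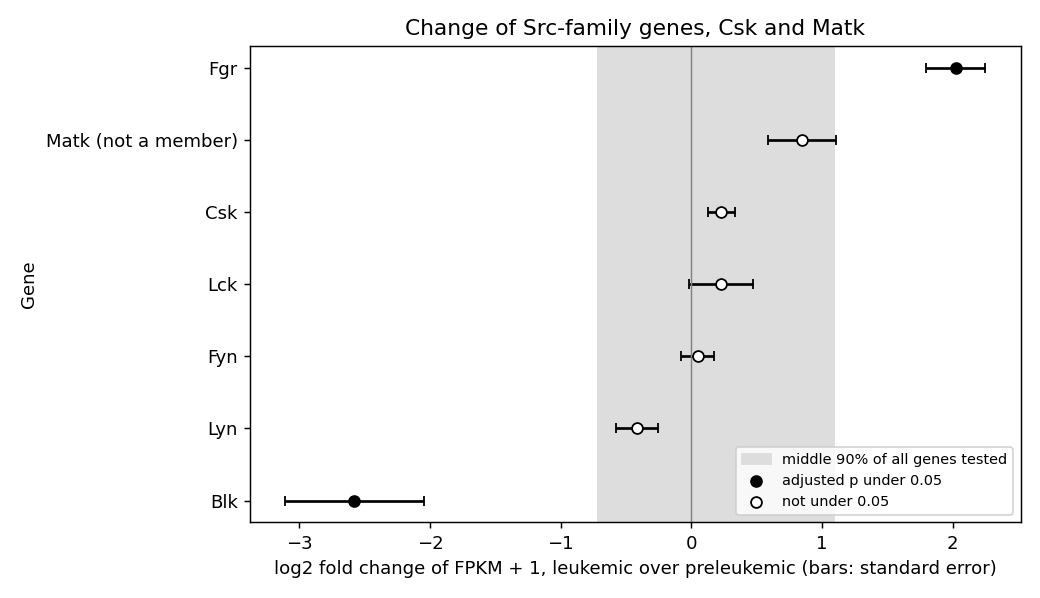
Log2 fold change of FPKM + 1, leukemic over preleukemic, with its standard error, for the 6 genes tested and for Matk, the gene of a Csk-like kinase; filled points passed an adjusted p of 0.05 and the grey band holds the middle 90% of all genes tested. Blk (-2.58) and Fgr (2.02) lie outside the band on opposite sides, whereas Lyn, Fyn, Lck and Csk lie inside it.

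A call for Blk and none for Lyn, Fyn, Lck or Csk does not show that they differ, so the log2(FPKM + 1) of Blk less that of each other gene was taken within each sample and compared between the groups in 6 exact permutation tests. Blk minus Lyn averaged -4.52 ± 0.32 (SD, n = 3) among the leukemic samples and -2.36 ± 0.81 (SD, n = 4) among the preleukemic ones, a difference between groups of -2.16 (SE 0.45, exact permutation p = 0.0571). Against Fyn the difference was -2.63 (SE 0.66), against Yes1 -2.67 (SE 0.59) and against Csk -2.81 (SE 0.60), each with an exact permutation p of 0.0571. Yes1 stayed between 0.01 and 0.219 FPKM, so Blk minus Yes1 is in effect Blk alone and not a comparison of 2 measured paralogs. Against Lck it was -2.81 (SE 0.46) and against Fgr -4.60 (SE 0.61), each at the smallest p the design allows (exact permutation p = 0.0286). In all 6 comparisons the highest leukemic sample was below the lowest preleukemic sample. With a pseudocount of 0.1 in place of 1 the comparisons with Fyn, Yes1 and Csk also came to an exact permutation p of 0.0286, for Yes1 with values near the lowest of the table. All 6 share the same Blk values, and with Benjamini-Hochberg adjustment over the 6 comparisons each exact permutation p was 0.0571. The fall of Blk was known from these data before the comparisons were made, so these p-values give no independent support for a difference. Fyn, Lck and Csk had log2 fold changes of 0.05, 0.23 and 0.23, so the differences from them mostly repeat the fall of Blk itself (-2.58).

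As a share of the summed FPKM of the 6 kinases, Blk made up 0.212%, 1.21% and 0.962% in leukemic replicates 1 to 3 and 2.78%, 8.11%, 6.82% and 12.1% in preleukemic replicates 1 to 4. Its mean share was 0.794% ± 0.518 (SD, n = 3) in leukemia and 7.44% ± 3.83 (SD, n = 4) in preleukemia, without overlap. Fgr went from 0.370% to 3.5%, Lck from 7.46% to 9.94%, Lyn from 36.7% to 30.7% and Fyn from 48.0% to 55% of the sum, as group means. The sum itself was 162, 148 and 172 FPKM in the leukemic samples and 154, 168, 183 and 209 FPKM in the preleukemic samples, and these ranges overlapped. Csk stood at 1.75, 1.72 and 1.47 times this sum in leukemic replicates 1 to 3 and at 1.41, 1.16, 1.35 and 1.17 times in preleukemic replicates 1 to 4. No test was made of these shares and ratios.

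**Figure D3:**
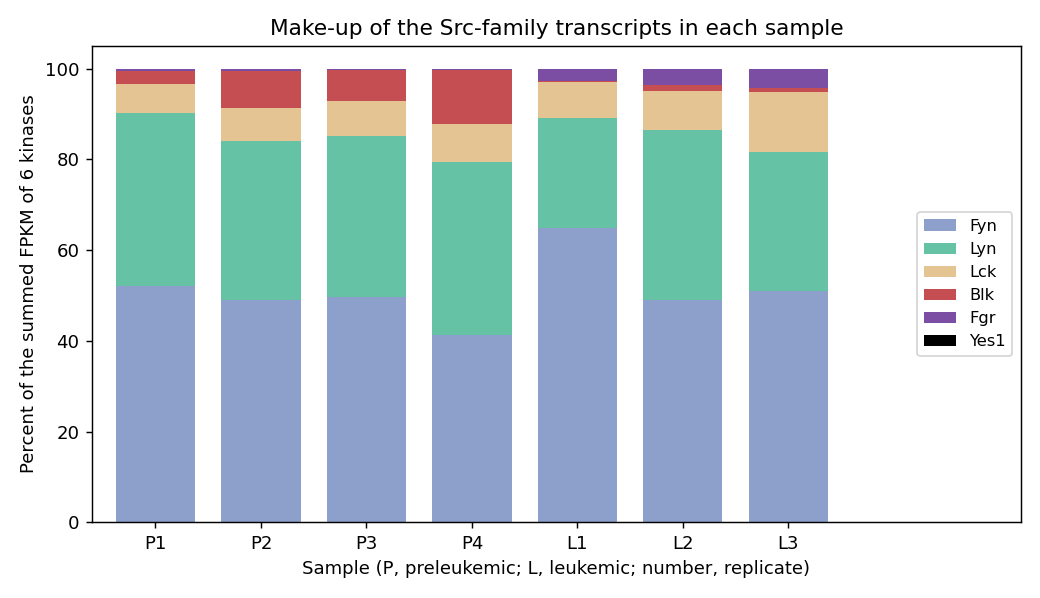
Share of each kinase in the summed FPKM of the 6 Src-family genes, as stacked bars from 0 to 100%, for preleukemic (P) and leukemic (L) samples by replicate. Blk fills 2.78% to 12.1% of the preleukemic bars and at most 1.21% of the leukemic bars, Fgr is seen mainly in the leukemic bars, Fyn and Lyn make up most of every bar, and Yes1 is too small to see.

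In order of mean level, the leukemic samples ran Csk, Fyn, Lyn, Lck, Fgr, Blk and Yes1, and no ranges of neighbours in that order overlapped. The preleukemic samples ran Csk, Fyn, Lyn, Blk, Lck, Fgr and Yes1, and there only Blk and Lck overlapped, with Blk the higher in 2 of 4 samples. Blk was therefore between Lyn and Lck in preleukemia and between Fgr and Yes1 in leukemia, where it was below Fgr in every sample.

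Since the study examined chromosome gains, each gene was also set beside the tested genes of its chromosome with a mean of at least 5 FPKM. The gene itself was among them where it reached that mean. The median log2 fold change over 305 such genes of chromosome 14 was -0.04, which left Blk at -2.54 relative to its chromosome. In leukemic replicates 1 to 3, Blk deviated from its preleukemic mean by -3.26, -2.2 and -2.27 on the log2 scale, beside chromosome 14 medians of -0.09, -0.10 and 0.15. From these per-sample chromosome medians the sample's median deviation over such genes of all chromosomes was subtracted. It was not subtracted from the deviation of a single gene, so the 2 are not on quite the same scale. In each leukemic sample the deviation of Blk was far below this chromosome 14 median. Csk lies on chromosome 9, where the median over 495 genes was 0.23, the same as the log2 fold change of Csk itself (relative value 0.00). In leukemic replicates 1 to 3 the chromosome 9 medians, with the same subtraction, were 0.33, 0.28 and 0.10 and the deviations of Csk from its preleukemic mean, without it, 0.34, 0.18 and 0.17. Lyn, Lck and Fgr all lie on chromosome 4, whose median over 545 genes was -0.06, and the 3 genes stood at -0.36, 0.28 and 2.08 relative to it.

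**Figure D4:**
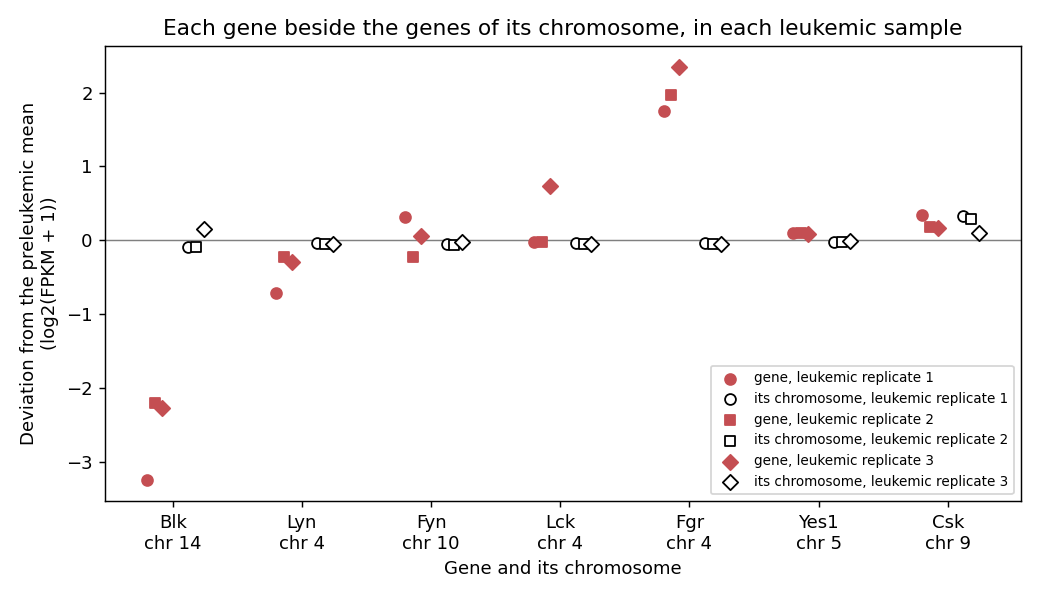
Deviation of each gene from its preleukemic log2(FPKM + 1) mean in each leukemic sample (red), beside a median for its chromosome (open symbols). That value is the median deviation over the chromosome's genes less the sample's median over all genes with a mean of at least 5 FPKM. Blk lies between -3.26 and -2.2 while chromosome 14 stays between -0.10 and 0.15, and the Csk points lie near those of chromosome 9.

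None of the 3 tested genes nearest to Blk on each side was called lower in leukemia. On the lower-coordinate side, Wdfy2 had a log2 fold change of 0.36 (limma adjusted p = 0.507), and Fdft1, the squalene synthase gene 193 kb away, 0.24 (limma adjusted p = 0.237). Ctsb, the gene of the lysosomal protease cathepsin B, which the table lists at the same interval as Fdft1, rose by 1.16 (SE 0.17, limma adjusted p = 0.0123), a call that was lost without preleukemic replicate 4 (limma adjusted p = 0.0517). On the other side, Mtmr9 (106 kb away), Pinx1 (443 kb) and Msra (705 kb) had log2 fold changes of -0.06, -0.03 and 0.01, with limma adjusted p from 0.738 to 0.954.

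The genes whose log2(FPKM + 1) profile over the 7 samples, centred on its mean, was nearest to that of Blk were Tmprss3, Thy1, Arpp21, Rd3l and Cacna1i. Likeness was the root mean square difference from Blk, which was 0.40, 0.44, 0.50, 0.54 and 0.58 for these genes, 1.46 for a flat profile and 1.46 at the median of the 10540 other genes tested. Being chosen for this pattern, their levels are given as a description with no test. Thy1, which encodes a glycoprotein of the lymphocyte surface, was between 3.14 and 3.69 FPKM in leukemic and between 9.10 and 26.6 FPKM in preleukemic samples. Tmprss3, a serine protease gene, was measured at 0.0772, 0.534 and 1.10 FPKM in leukemic replicates 1 to 3 and at 2.06, 4.62, 4.99 and 9.64 FPKM in preleukemic replicates 1 to 4, with replicates 1 and 4 lowest and highest of the preleukemic group as for Blk. Arpp21 was between 0.557 and 3.07 FPKM in leukemic and between 11.1 and 17.8 FPKM in preleukemic samples. Rd3l was listed at the lowest value of the table in leukemic replicate 1, and Cacna1i, a calcium channel gene, had its lowest value, 0.116 FPKM, in the same sample. None of the 5 lies on chromosome 14.

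**Figure D5:**
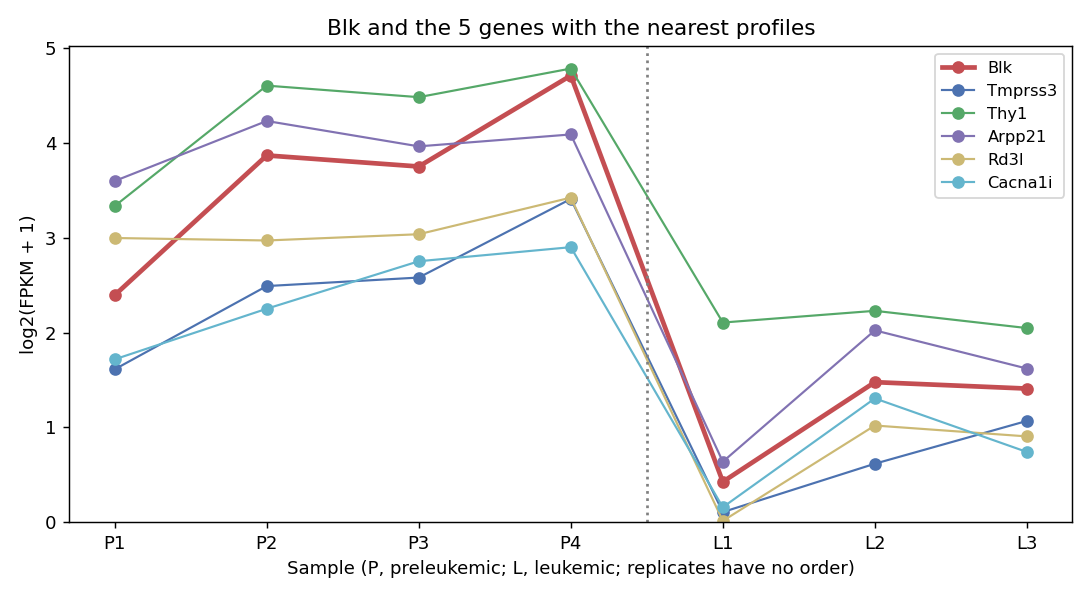
Level of Blk and of the 5 genes with the nearest profiles on the log2(FPKM + 1) scale in each sample (P, preleukemic; L, leukemic; lines join the points of a gene and do not stand for an order). All 6 lines drop between the groups, and 5 of the 6 genes, Thy1 excepted, have their lowest value in leukemic replicate 1.

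Of the Src-type kinase genes outside the set, Matk, which encodes the Csk-like kinase CHK, was at 9.65, 10.1 and 14 FPKM in leukemic and between 3.79 and 9.09 FPKM in preleukemic samples, with a log2 fold change of 0.84 (SE 0.26) that did not pass (limma adjusted p = 0.0692). Src itself was below the filter, at 4.54 FPKM in leukemic replicate 1, 0.668 and 0.877 in the other two and between 0.166 and 0.224 in the preleukemic samples, and was not tested. Frk, Ptk6 and Srms did not exceed 0.251 FPKM in any sample.

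The list of 11 regulators of the family held phosphatases, adaptors and ubiquitin ligases among others. Of the 11, 8 had a log2 fold change below 0 and 3 above, and 2 were called lower in leukemia and 0 higher (18.2% called, beside 14.7% of all genes tested). The median log2 fold change was -0.14 beside -0.02 over all genes tested. Ptpn22, a phosphatase gene whose product acts together with Csk on activated Src-family kinases, was at 4.48, 9.67 and 7.49 FPKM in leukemic and between 13.0 and 20 FPKM in preleukemic samples. The groups did not overlap, and the log2 fold change was -1.06 (SE 0.25, limma adjusted p = 0.0331, but 0.0527 without the filter). The call of Ptpn22 was kept in 2 of the 7 fits that left out 1 sample, and was lost without leukemic replicate 3 (limma adjusted p = 0.0593) or preleukemic replicate 1, 2, 3 or 4 (0.0548, 0.0813, 0.0716 and 0.102). Cblb, a ubiquitin ligase gene, was between 5.43 and 7.25 FPKM in leukemic and between 9.04 and 11.0 FPKM in preleukemic samples (log2 fold change -0.58, SE 0.12, limma adjusted p = 0.0226). Its call was lost without preleukemic replicate 2, 3 or 4 (limma adjusted p = 0.0522, 0.0715 and 0.0782). The regulators with the highest FPKM did not pass, with log2 fold changes of -0.14 for Ptpn6 (SHP-1), -0.26 for Ptprc (CD45) and 0.06 for Ptpn11 (SHP-2).

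Among 23 receptors and substrates through which the kinases act in B-lineage and myeloid cells, 22 were tested. Of these, 18 had a log2 fold change below 0 and 4 above, with a median of -0.36. In the test, 1 was called higher and 1 lower (9.09% called, beside 14.7% of all genes tested). Siglecg, the gene of an inhibitory receptor of B cells, was at 40.4, 48.6 and 57.4 FPKM in leukemic and at 68.2, 94.0, 82.7 and 85.0 FPKM in preleukemic samples (log2 fold change -0.75, SE 0.15, limma adjusted p = 0.0218). This call, too, was lost without preleukemic replicate 2, 3 or 4 (limma adjusted p = 0.0599, 0.0673 and 0.0754). Fyb, an adaptor gene whose product is a substrate of Fyn, was at 2.53, 5.82 and 4.99 FPKM in leukemic and between 0.650 and 1.17 FPKM in preleukemic samples (1.47, SE 0.26, limma adjusted p = 0.0172, and 0.0242 without the filter). It passed the filter through the leukemic group (13.3 of 16.9 FPKM in sum), and its call was lost without preleukemic replicate 3 or 4 (limma adjusted p = 0.0553 and 0.0635). Cd79a and Cd79b, the highest of the list, had log2 fold changes of -0.48 and -0.44 with limma adjusted p of 0.0567 and 0.114, and both passed as lower after quantile normalization (limma adjusted p = 0.0131 and 0.0197). Over both lists 4 of 33 genes tested were called, 12.1% beside 14.7% of all genes, which is near the background and, with Fyb among the 4, is given as a description. Of the 33, 26 had a log2 fold change below 0. The count of 4 was 1 without preleukemic replicate 2, 0 without preleukemic replicate 3 or 4, and 7 without leukemic replicate 2. Over all genes tested, the calls in these fits were 443, 271, 149 and 1620, in that order, beside 1553 with all samples.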

How the data were processed

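RNA-seq libraries (stranded, from mRNA) had been prepared from 3 leukemic and 4 preleukemic samples of BCP cells, sorted per the labels. The authors deposited FPKM values, 1 per gene and sample, for 24341 genes, with no value under 0.01. The submitters' processing notes name mm10, STAR 2.5.0b, Cufflinks 2.2.1, bedtools 2.17.0, Bowtie and DESeq2; which of them made the FPKM values, and with which annotation, is not given in the sources used here. FPKM is not a count, so the DESeq2 model that the study applied to counts was replaced by limma 3.58.1 in R 4.3.3 on log2(FPKM + 1). The fit had an intensity trend, no covariates and the study's threshold (0.05). The study removed genes with a sum under 10 counts, whereas here a sum of at least 10 FPKM was required, which is a different and stricter filter. Yes1, not tested here, stood for about 13.3 fragments in preleukemic replicate 3 alone. Samples were grouped by their labels. P-values measure the spread between samples, and whether each sample came from 1 mouse is not given in the sources used here.

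The 7 genes, the hand-written lists and the rule for naming genes were chosen with earlier results of these data known. Named were the 7 genes, other Src-type kinases, the called and the 3 highest genes of each list, the 5 profiles nearest to Blk and 3 neighbours on each side; of these, 2 genes are not reported here and stay in the counts only. Single values were compared by exact permutation over 35 labelings, two-sided on the absolute difference of means. Shares of the summed FPKM were given without a test.

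Depth was estimated from weakly expressed genes annotated with 1 transcript longer than 1500 bases (2243 genes), whose low values were whole fragments for 75.5% to 80.9% per sample (tolerance 0.1), so fragment numbers are approximate and cover counting alone. No 2 samples shared more than 1 equal value above the lowest. Tested on simulated data for this comparison (10541 genes, 200 changed), the fit recovered 130 at a log2 change of 1 (6 false calls), 179 at a log2 change of 2 (10 false calls), and with 0 changed there was 1 false call. The simulated noise was normal and independent between genes, with as many changes up as down. It does not cover many genes moving together, so it does not give the number of false calls in the real data. Reads of overlapping antisense genes annotated at Lyn, Fyn and Yes1 were separable only if the counting used strand, which is not given in the sources used here. Alternatives were a pseudocount of 0.1, no filter, a sum of at least 70, quantile normalization, no intensity trend, a replicate block, each sample left out in turn, all tested genes as the chromosome's reference and, chosen after seeing the data, the removal of leukemic replicate 2 with preleukemic replicate 1. Python 3.11.15, numpy 2.4.6, pandas 2.3.3, scipy 1.17.1, biopython 1.88 and matplotlib 3.10.9 were used. Gene positions were taken from the deposited table (mm10, GRCm38).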

Additional observations from a re-analysis of the deposited data

Results flagged for a closer look

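Of 34 genes named or examined here, 1 stood out by a sample far from the rest of the preleukemic group. Rd3l, one of the genes with a profile near that of Blk, was at 9.74 FPKM in preleukemic replicate 4 and between 6.85 and 7.22 FPKM in the other 3 samples. The gap exceeded the 95% critical value of Dixon's test for 4 samples, which chance exceeds in about 1 of 20 groups.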

How the results depend on the processing

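The limits are the low number of samples, Blk counts as low as 11.2 fragments, and FPKM in place of counts. Blk kept its direction in 13 of 13 alternatives and passed in 9 (limma adjusted p from 0.0101 to 0.0994), and Fgr kept its direction in 13 and passed in 12 (from 0.00495 to 0.137). The fits that passed included, for both genes, the removal of leukemic replicate 2 with preleukemic replicate 1, which had to widen the Blk difference. The replicate block and the fit without preleukemic replicate 4 gave the same fold changes, so they are not separate alternatives in that respect. Where a sample was left out, the smallest p of the exact test rose to 0.0667 or 0.1, and no comparison of Blk with another gene passed. The cause of the other changes was not tested.

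With each sample left out in turn, genes called numbered 149 to 1620 (1553 with all samples), of the 7 genes 1 to 2 were called, and of the regulators and substrates 0 to 7. Fold changes ranged from -3.01 to -2.23 for Blk, -0.085 to 0.18 for Fyn and -0.026 to 0.35 for Lck, and the difference of Blk from Lck from -3.12 to -2.58 and from Fgr from -5.12 to -4.23. The Fyn value reversed without leukemic replicate 1 (-0.085) and under quantile normalization (-0.045), and that of Lck without leukemic replicate 3 (-0.026). Among other genes that did not pass, the sign turned in at least 1 of these fits for Ptpn11 (-0.024 to 0.11), Wdfy2 (-0.028 to 0.80), Mtmr9 (-0.10 to 0.027), Pinx1 (-0.26 to 0.11) and Msra (-0.039 to 0.050), and for Msra also under quantile normalization (-0.043).

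With a sum of at least 70, 951 genes were called, 2 of them regulators or substrates, and 0 of the 7 genes, because Blk and Fgr were below that sum and not tested. Quantile normalization gave 9 regulators and substrates among 1691 genes called in all. A pseudocount of 0.1 gave differences of Blk from Fyn of -3.42, from Yes1 of -3.94 and from Csk of -3.60, each at an exact permutation p of 0.0286 before adjustment. Values relative to the chromosome were then 3.10 for Fgr (2.08 with 1) and 0.61 for Yes1 (0.13 with 1). The Yes1 values lie near the lowest of the table, where the pseudocount weighs most.

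The replicate numbers did not pair the samples: same-numbered deviations from the group means correlated between -0.09 and 0.05 over 3 pairs, and 1 leukemic sample was nearest to its own number. With the number as a replicate block, 0 genes were called, 0 of the 7 genes and 0 regulators and substrates, with fold changes of -2.23 for Blk (limma adjusted p = 0.0994) and 2.0 for Fgr (limma adjusted p = 0.137).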
